A study of Mus musculus with 6 samples.

Results

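The Lyve1/Cd209 cells of mouse skin wounds were macrophages that held transcripts of several lectins of tissue macrophages in the same cell. A wound cell was counted as one when it held unique molecular identifiers (UMIs, each a single captured transcript) of at least 3 of the 6 genes Lyve1, Cd209f, Cd209g, Cd209b, Cd209d and Fcna and a UMI of Csf1r or Mrc1, with under 0.5% of its UMIs from the collagen genes Col1a1, Col1a2 and Col3a1. There were 321 such cells among 11032 wound cells (2.91%) in 3 libraries, and none among the 24051 cells of the 3 dendritic cell (DC) culture libraries of the series, a count that allows a share of up to 0.0125%. Of the 321 cells, 101 came from the wound with control DCs, 151 from the wound with Ndrg2-KO DCs and 69 from the wound with blank hydrogels, and values of the libraries are given in that order. The cells were thus chosen by their measured UMIs of these 11 genes, whose levels are a description and were not tested.

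Skin holds macrophages of its own before injury, and monocytes from the blood add further macrophages after wounding. LYVE1 is a hyaluronan receptor of lymphatic endothelium and of perivascular macrophages, the CD209 family are C-type lectins that bind mannose- and fucose-bearing glycans, and ficolin A, encoded by Fcna, is a secreted pattern-recognition protein of the lectin pathway of complement. Macrophages with these genes are known from many connective tissues, where they lie along vessels, take up debris and carry low surface MHC class II.

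The wounds were full-thickness excisions, splinted open, on 6-week-old wild-type C57BL/6J mice. Each was covered with a pullulan-collagen hydrogel holding bone marrow-derived DCs edited at Ndrg2 with Cas9, control DCs (untreated per the labels and nucleofected with Cas9 and non-targeting guides per the methods), or no cells. Tissue was explanted on day 10 from 5 mice per treatment, and each treatment has 1 droplet library (10x Genomics, counting transcript 3′ ends). How many of the mice went into each library is not stated. The spread between mice is thus not seen and no test between treatments was possible. The series text speaks of sorted GFP-positive cells of a parabiosis model, whereas the 3 wound libraries held 1 EGFP UMI in all. The methods name mice of both sexes, and the Lyve1/Cd209 cells held 0, 1 and 0 UMIs of Y-linked genes, while 94 of 101, 146 of 151 and 66 of 69 of them held Xist.

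The libraries held 32639817, 56216477 and 38354663 UMIs, of which the Lyve1/Cd209 cells had 1742404, 3256620 and 1165902. A Lyve1/Cd209 cell had a median of 17427, 21149 and 14995 UMIs, against 10795, 4415 and 5603 over all kept cells. The libraries shared at most 3 barcodes of kept cells pairwise and none between Lyve1/Cd209 cells. Levels are given as UMIs per 1000000 UMIs (CPM), summed over the cells of a library.

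Of the 6 lectins of the rule, 4 lie in a cluster of 7 Cd209 genes on chromosome 8, which were all of the protein-coding genes over 394 kb (GRCm38). Cd209a (chr8:3743397-3748984), Cd209e (chr8:3847965-3854309), Cd209d (chr8:3871824-3878555), Cd209b (chr8:3917655-3926844) and Cd209c (chr8:3940222-3954746) follow each other on the minus strand. A gap of 148 kb leads to Cd209f (chr8:4102787-4105835, minus strand), and a further 28.3 kb to Cd209g (chr8:4134098-4137707, plus strand), so that Cd209f and Cd209g are neighbours that point away from each other. Their promoters are shown because they were the only pair of Cd209 promoters that shared a word of 20 bases. Each window runs from 250 bases before the gene's RefSeq start to 50 after it, 5′ to 3′ on the gene's own strand (RefSeq sequence, GRCm38.p6). The RefSeq starts, at 4105764 for Cd209f and 4134736 for Cd209g, lie inside the gene bounds given above, which are GENCODE's and reach to the outermost model. The Cd209f start is that of a coding GENCODE model, and the only coding model of Cd209g starts at 4134652 within the window. Capitals mark bases inside words of 20 bases that occur in both windows.
Cd209f, chr8:4105715-4106014, minus strand: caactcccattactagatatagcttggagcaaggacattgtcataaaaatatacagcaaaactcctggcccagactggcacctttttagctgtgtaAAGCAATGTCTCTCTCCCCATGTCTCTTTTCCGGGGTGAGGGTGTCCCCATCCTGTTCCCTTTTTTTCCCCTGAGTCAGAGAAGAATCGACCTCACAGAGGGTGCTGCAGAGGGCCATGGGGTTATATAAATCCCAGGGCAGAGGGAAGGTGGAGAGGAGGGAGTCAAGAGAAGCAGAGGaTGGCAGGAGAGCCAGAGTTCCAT
Cd209g, chr8:4134486-4134785, plus strand: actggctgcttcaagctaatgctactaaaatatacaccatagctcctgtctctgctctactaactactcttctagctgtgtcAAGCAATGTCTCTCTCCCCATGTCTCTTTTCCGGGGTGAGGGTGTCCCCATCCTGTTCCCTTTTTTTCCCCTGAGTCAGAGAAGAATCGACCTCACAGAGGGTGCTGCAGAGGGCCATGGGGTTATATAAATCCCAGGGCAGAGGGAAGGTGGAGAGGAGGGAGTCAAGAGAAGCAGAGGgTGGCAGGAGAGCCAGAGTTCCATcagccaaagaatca
Of the 300 bases in each window, 203 lay in such shared words, the longest shared run was 180 bases, and 238 of 286 aligned bases were identical (83.2%). None of the other 20 pairs of Cd209 promoters shared a word of 20 bases, and their longest shared runs were 7 to 17 bases.

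Near-identical genes can share reads. Words of the last 500 bases of each transcript, which a 3′ library counts, were therefore sought in the whole transcripts of the other gene. Both Cd209g models and 4 of 5 Cd209f models shared none of 471 words of 30 bases there. The exception was a short Cd209f model of 705 bases that shared 411 of 471 words (87.3%) with Cd209g. These words lie outside the last 500 bases of the Cd209g models, which shared none with Cd209f. The split of counts between Cd209f and Cd209g is uncertain to the extent that the short model is used.

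Cd209f, a mouse relative of the human pathogen receptor DC-SIGN, was measured at 873, 2075 and 889 CPM in the Lyve1/Cd209 cells. Cd209g stood at 370, 950 and 370 CPM. In both genes the wound with Ndrg2-KO DCs was the high library and the other two lay close together. Cd209d stood at 872, 568 and 557 CPM and Cd209b, a receptor for bacterial polysaccharide on splenic marginal zone macrophages, at 362, 221 and 251 CPM. For these the wound with control DCs was the high library. Lyve1 stood at 584, 414 and 299 CPM, and Fcna at 769, 881 and 648 CPM. Mrc1, the mannose receptor, stood at 2725, 2124 and 2117 CPM, and Csf1r, the receptor for the macrophage growth factor CSF1, at 740, 709 and 762 CPM.

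**Figure D1:**
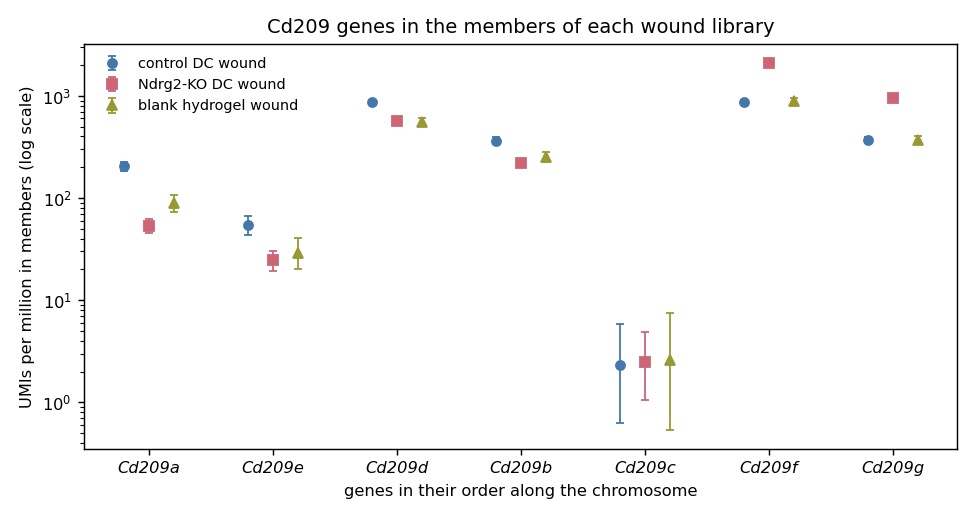
UMIs per 1000000 UMIs (log axis) of the 7 Cd209 genes in their order on the chromosome, in the Lyve1/Cd209 cells of the 3 wound libraries, with exact Poisson intervals of counting error. Cd209f and Cd209g were highest in the wound with Ndrg2-KO DCs (2075 and 950 CPM), and Cd209a, Cd209e, Cd209d and Cd209b in the wound with control DCs (204, 53.9, 872 and 362 CPM).

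The other 3 Cd209 genes took no part in the choice of cells. Cd209a stood at 204, 53.1 and 88.3 CPM and Cd209e at 53.9, 24.6 and 29.2 CPM, both highest in the wound with control DCs. Cd209c was nearly silent, with 4, 8 and 3 UMIs. The levels of the 4 Cd209 genes of the rule are a description, and no link between promoter sequence and level was tested.

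Most transcripts of the 4 Cd209 genes of the rule were in these cells. The Lyve1/Cd209 cells accounted for 96.0%, 97.3% and 95.9% of all Cd209f UMIs of the kept cells of their library, 96.6%, 97.5% and 96.4% of Cd209g, 96.2%, 98.5% and 90.4% of Cd209b, and 92.4%, 93.8% and 80.9% of Cd209d. The rule itself draws such cells in, so these shares describe how much of the signal the rule caught. Of the cluster's other genes, the cells held 61.8%, 37.7% and 20.3% of the Cd209a UMIs and 65.3%, 88.9% and 40.0% of the Cd209e UMIs. Fcna and Lyve1 were caught less fully, at 72.7%, 77.8% and 62.4% of Fcna and 72.7%, 72.1% and 45.7% of Lyve1, and Mrc1 and Csf1r least, at most 34.0% and 22.0%. Among genes outside the rule, 83.0%, 81.2% and 79.5% of the UMIs of Vsig4, a complement receptor of resident macrophages, were in these cells, against 50.3%, 49.8% and 27.9% for Folr2, 35.8%, 33.9% and 18.1% for F13a1 and 11.6%, 13.3% and 2.90% for Pf4.

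Lyve1 was detected in 276 of the 321 cells (86.0%), Cd209f in 301, Cd209g in 278, Cd209d in 268, Cd209b in 166, Fcna in 310, Mrc1 in 321 and Csf1r in 316. At the lower edge of the rule 44 cells held 3 of the 6 lectins, 44 held 4, 107 held 5 and 126 held all 6, while 220 cells with 2 lectins fell just outside. As the mean of the 3 libraries, Folr2 stood at 653 CPM in the cells with 2 lectins, at 648 CPM in those with 3 and at 1049 CPM in those with 6. F13a1 stood at 1357, 1270 and 2004 CPM in the same classes and Cd163 at 586, 618 and 985 CPM. Cells with 2 and with 3 lectins thus lay at like levels of these genes. Of the cells with Csf1r or Mrc1 and none of the 6 lectins there were 3523, with Folr2 at 76.1, F13a1 at 451 and Cd163 at 43.0 CPM. The number of lectins seen rises with a cell's depth, with Spearman correlations of 0.38, 0.35 and 0.23 over 101, 151 and 69 cells.

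As a description of a gene that chose the cells, in the wound with control DCs, 84.2% of the Lyve1/Cd209 cells held a Lyve1 UMI, against 1.21% of 413 fibroblast reference cells (median 32754 UMIs) and 0.328% of 305 neutrophil reference cells (median 3519 UMIs), and at 1000 UMIs per cell the shares were 37.6%, 0% and 0%. The name of a resident-like macrophage was checked on markers outside the rule. Lymphatic endothelium, the other known source of Lyve1, was not seen among them: no cell held 3 markers of that type, Prox1 had 0, 2 and 0 UMIs and Ccl21a none. Folr2, a folate receptor of resident macrophages, was detected in 55.4%, 70.0% and 52.9% of the cells after each was thinned to 1000 UMIs, against 19.6%, 26.1% and 18.5% of other macrophages with C1q transcripts (C1q cells, defined with the comparisons). Timd4, the phosphatidylserine receptor TIM-4 of long-lived resident macrophages, had only 35, 136 and 16 UMIs. T and NK cell markers summed to 0, 1 and 2 UMIs.

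Transcripts of other cells were present in some of the Lyve1/Cd209 cells. At least 3 neutrophil markers were held by 6, 56 and 11 cells, at least 3 erythroid markers by 7, 28 and 1, and at least 3 fibroblast markers by 10, 5 and 7. In all, 19, 75 and 17 cells held markers of another type at that number and are called mixed cells here. The summed level of the neutrophil list was 1635, 1733 and 288 CPM and that of the erythroid list 625, 2055 and 56.6 CPM. Doublets were not removed and no correction was made for ambient RNA (free transcripts caught with a cell). What either contributes to each result, or to the choice of mixed cells, was not tested. Values without the mixed cells are given beside several results.

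As a share of kept cells, the Lyve1/Cd209 cells were 5.18% in the wound with control DCs (exact binomial 95% interval 4.24% to 6.26%), 2.66% in the wound with Ndrg2-KO DCs (2.26% to 3.11%) and 2.03% in the wound with blank hydrogels (1.58% to 2.56%). Of the cells with Csf1r or Mrc1 and little collagen they were 12.4%, 6.89% and 4.29%. The wound with control DCs was highest by either denominator. With all cells thinned to 1000 UMIs before the rule was applied, and shallower cells left out, the shares were 1.82%, 1.13% and 0.659%. The intervals hold counting error only, and with 1 library per treatment the treatment, the mice and the handling of the tissue cannot be told apart.

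To see what the Lyve1/Cd209 cells have beyond the lectins, their UMI sums were set against those of 3 other kinds of myeloid cells of the same 3 libraries, each with little collagen and none a Lyve1/Cd209 cell. The C1q cells held UMIs of C1qa, C1qb and C1qc, the general macrophage genes for complement C1q (349, 571 and 542 cells). The Arg1/Mmp12 cells held both of these genes of wound-activated macrophages (114, 441 and 191 cells), and the Ly6c2/Ccr2 cells both of these monocyte genes (82, 242 and 132 cells). Of the last, 16, 30 and 10 cells also held at least 3 T or NK cell markers. At least 3 neutrophil markers were held by 21, 125 and 98 of the C1q cells, 21, 212 and 84 of the Arg1/Mmp12 cells and 10, 69 and 36 of the Ly6c2/Ccr2 cells. Each gene was tested with edgeR's quasi-likelihood test on the 3 libraries with the library as a block, which leaves 2 residual degrees of freedom, and adjusted over all genes tested. The 3 comparisons share the sums of the Lyve1/Cd209 cells and are not independent of each other. Genes that go with the lectins cell by cell are not independent of the rule either.

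Against the C1q cells, the closest population, 2083 of 9920 genes tested (21.0%) passed at an adjusted p under 0.05, 1030 higher (10.4%) and 1053 lower (10.6%) in the Lyve1/Cd209 cells. Most genes of the resident macrophage list were higher, and most genes of the MHC class II, monocyte, wound-activated and glycolysis lists were lower. The median log2 fold over all genes tested was 0.01. Lyve1/Cd209 cells were also deeper than C1q cells, whose medians were 12448, 10854 and 12206 UMIs, and when each cell was thinned to 1000 UMIs 442 of 3360 genes tested passed.

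Of the 20 genes of the resident macrophage list, 15 were higher, 1 was lower and 4 did not pass, with a median log2 fold of 1.31. Folr2 stood at 835, 1177 and 707 CPM in the Lyve1/Cd209 cells and at 268, 409 and 240 CPM in the C1q cells, a log2 difference of 1.5 ± 0.14 (SE, adjusted p = 0.000175). Cd163, the scavenger receptor for haptoglobin-bound haemoglobin, stood at 1081, 677 and 808 CPM against 339, 183 and 246 CPM (1.69 ± 0.14, adjusted p = 9.08e-05). The libraries of the populations did not overlap for either gene. Ccl8, a chemokine for monocytes and T cells, stood at 14432, 18749 and 10630 CPM against 4779, 4516 and 3315 CPM (1.70 ± 0.20, adjusted p = 0.000496). Clec10a, a lectin for galactose-type sugars, rose by 2.34 ± 0.17, Selenop, a selenium carrier, by 1.30 ± 0.20, Gas6, a ligand that bridges dying cells to TAM receptors, by 1.39 ± 0.15, and F13a1, the transglutaminase subunit of factor XIII, by 0.95 ± 0.15. Timd4 had 35, 136 and 16 UMIs against 2, 0 and 0 in the C1q cells. Pf4 went the other way, with 856, 2122 and 992 CPM against 1667, 3203 and 3190 CPM (−1.15 ± 0.22, adjusted p = 0.00587), a call that was lost without the library block. Stab1 (0.09), Igfbp4, Ccl24 and Fcrls did not pass.

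**Figure D2:**
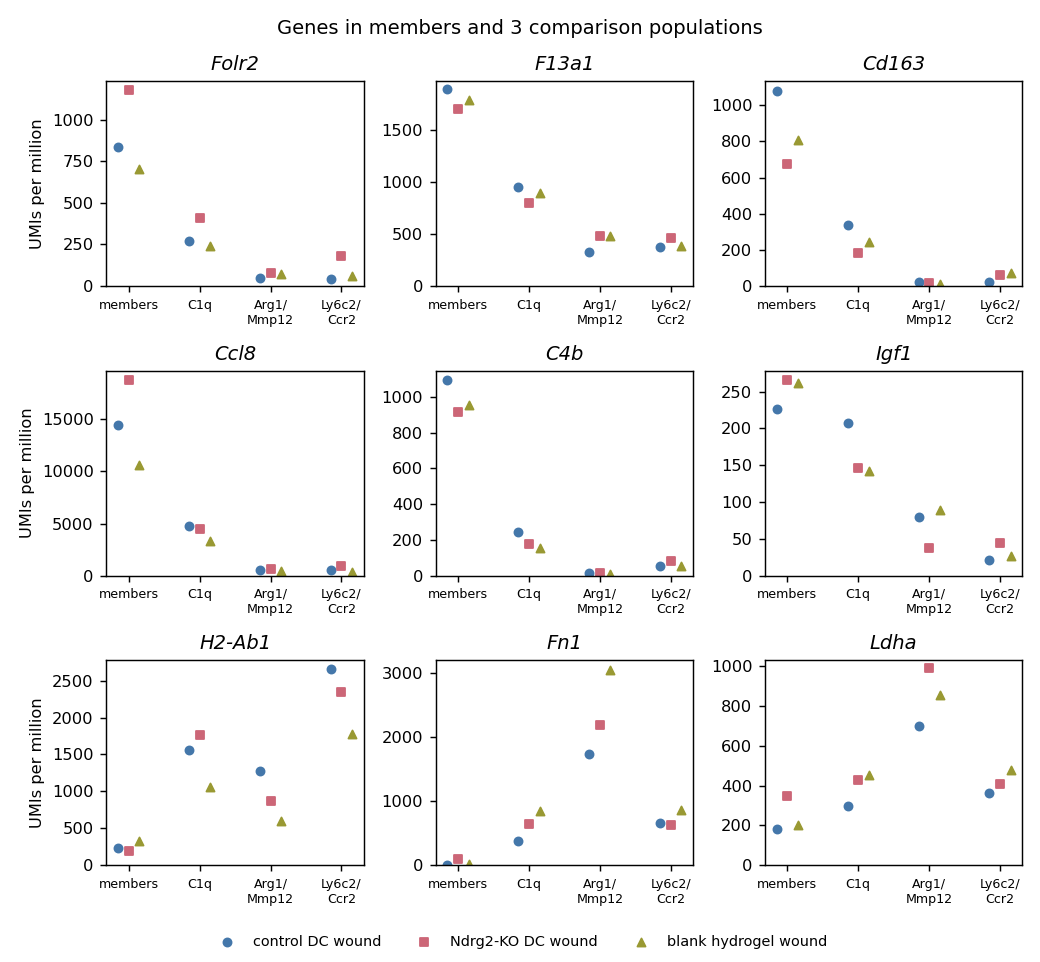
UMIs per 1000000 UMIs of 9 genes in the Lyve1/Cd209 cells (members), C1q cells, Arg1/Mmp12 cells and Ly6c2/Ccr2 cells, 1 point per wound library. Folr2, Cd163, Ccl8 and C4b were highest in the members of each library, and Fn1 and H2-Ab1 lowest, for example 235, 193 and 333 CPM of H2-Ab1 against 1554, 1761 and 1058 CPM in C1q cells.

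Complement genes moved in both directions. C4b, which encodes the C4 protein cleaved by the classical and lectin pathways, stood at 1092, 914 and 956 CPM against 244, 174 and 152 CPM (2.33 ± 0.16, adjusted p = 3.96e-05). Cfb, of the alternative pathway, rose by 0.90, Vsig4 by 4.06 ± 0.29, and Cfp, properdin, by 0.55 ± 0.15, a call lost without the control library, the Ndrg2-KO library or the block. The complement component C3 fell by 1.0 ± 0.14, and the integrin chains of the complement receptors, Itgam and Itgax, were at −0.77 and −2.54. Of the 10 complement genes tested, 5 were higher and 3 lower. C6, of the membrane attack complex and outside the list, was at 260, 178 and 178 CPM against 25, 12.2 and 11.2 CPM (3.66 ± 0.15, adjusted p = 1.35e-05). The libraries lay well apart for C4b and C6. C1qa stood at 4192, 4834 and 3666 CPM against 2494, 2889 and 2347 CPM and was not tested, since it chose the C1q cells.

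Genes of uptake and of iron handling were mixed. Fcgrt, which encodes the neonatal Fc receptor that recycles IgG and albumin, stood at 1079, 1246 and 1070 CPM against 361, 377 and 330 CPM (1.59 ± 0.14, adjusted p = 0.000138), and was the 1 of 6 Fc receptor genes that passed. Of the 12 scavenger receptor genes tested, 4 were higher and 3 lower. Colec12, a collectin of the cell surface, was higher by 2.15 ± 0.25, whereas Cd36 (−1.63 ± 0.20), the LDL receptor relative Lrp1 (−1.68 ± 0.15) and the kinase receptor Axl (−1.86, lost without the block) were lower. Of the 11 iron and haem genes 4 were higher and 2 lower: Cp, the ferroxidase ceruloplasmin, rose by 2.01 ± 0.18, and Tfrc, the transferrin receptor, by 1.08 ± 0.20, while Fth1, the ferritin heavy chain that stores iron, fell by 0.91 ± 0.24, a call lost without the control library or the block. Hmox1, the haem-degrading oxygenase, did not pass (0.30). Of the 18 lysosomal genes 14 did not pass, 3 were higher and Ctss, a cathepsin of the MHC class II pathway, was lower (−0.99 ± 0.18).

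Among the other C-type lectins, Cd209a and Cd209e of the same gene cluster were higher by 4.69 ± 0.50 and 4.82 ± 0.26, and Mgl2, a paralogue of Clec10a, by 1.33 ± 0.20. Clec4e, the Mincle receptor for mycobacterial and dead-cell lipids, was lower by −2.36 on the log2 scale, Clec12a by −1.43 and Clec4d by −1.27. Of the 11 tested, 4 were higher and 5 lower.

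All 7 MHC class II genes tested were lower in the Lyve1/Cd209 cells, with a median of −2.02. H2-Ab1, a chain of the antigen-presenting dimer, was at 235, 193 and 333 CPM against 1554, 1761 and 1058 CPM (−2.61 ± 0.28, adjusted p = 0.000307). Cd74, the invariant chain, was at 1355, 792 and 1415 CPM against 4643, 4741 and 2976 CPM (−1.88 ± 0.28, adjusted p = 0.00187), and Ciita, the master activator of these genes, differed by −2.02, a call lost without the Ndrg2-KO library. The libraries did not overlap for any of these genes. Cell by cell the level was uneven: the MHC class II genes together had a median of 7.02, 3.31 and 4.35 UMIs per 10000 in the Lyve1/Cd209 cells, a 90th percentile of 71.9, 30.2 and 69.1 and a maximum of 223, 336 and 316, while 4, 8 and 7 cells had none. Resident list levels were more even, with medians of 350, 442 and 360 UMIs per 10000.

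**Figure D3:**
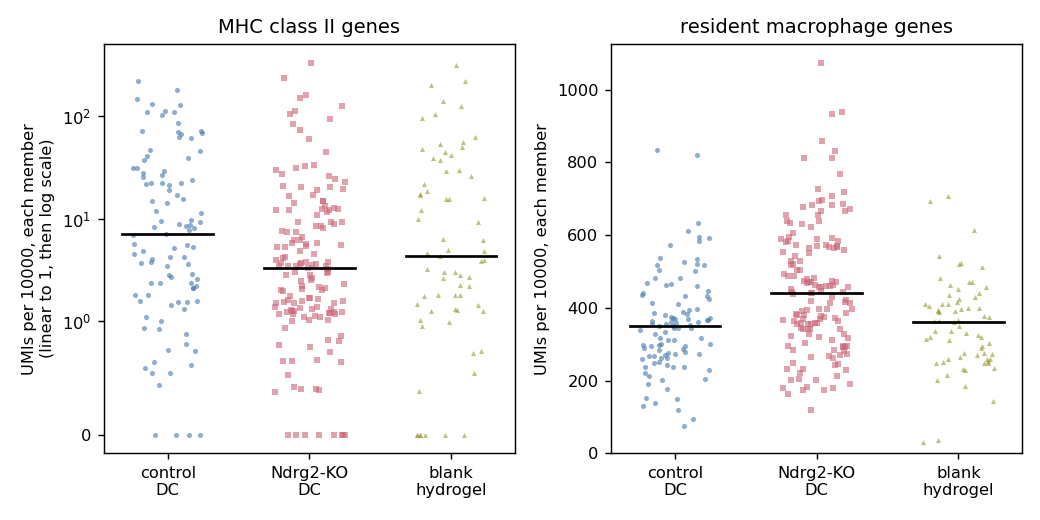
UMIs per 10000 UMIs of the MHC class II genes (symmetric log axis) and of the resident macrophage list in each Lyve1/Cd209 cell by library, with the line at the median. MHC class II had medians of 7.02, 3.31 and 4.35 with a tail of cells up to 336, and every cell held resident list transcripts.

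Genes of monocytes and of wound activation were low. Of the 8 monocyte genes tested, 6 were lower and 1, Plac8, higher (0.56, lost without the control library or the block). Of the 10 wound-activated genes, 9 were lower and Trem2, a lipid receptor, did not pass (−0.41). Fn1, fibronectin, was at 8.03, 105 and 15.4 CPM against 371, 647 and 853 CPM (−4.29 ± 0.51). Spp1, osteopontin, was at 37.9, 680 and 43.7 CPM against 789, 1938 and 1773 CPM (−3.70 ± 0.62, adjusted p = 0.00325), a call lost without the library block. The library with Ndrg2-KO DCs was the high one for both genes in the Lyve1/Cd209 cells. Thbs1, the matricellular thrombospondin, was at 107, 218 and 25.7 CPM against 1861, 1951 and 1689 CPM (−4.32 ± 0.43, adjusted p = 0.000218). Mmp14, a membrane-bound collagenase, Pdpn, podoplanin, and Gpnmb, a glycoprotein of lipid-laden macrophages, were at −3.62 ± 0.42, −3.23 ± 0.25 and −2.45, the last a call lost without the block. The remaining falls among the 10 largest at 50 CPM or more were Chil3, a chitinase-like lectin (−4.26 ± 0.50), the chemokine Ccl5 (−3.74 ± 0.40), Gngt2 (−3.35 ± 0.19), the interleukin 7 receptor chain Il7r (−3.23 ± 0.51) and the integrin chain Itgb5 (−3.10 ± 0.21).

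Of the 12 genes of glycolysis and hypoxia, 11 were lower, with a median of −1.04. The glucose transporter Slc2a1 was at 23.0, 22.1 and 25.7 CPM against 79.0, 82.1 and 75 CPM (−1.84 ± 0.15, adjusted p = 6.83e-05), and Ldha, which makes lactate, at 183, 349 and 201 CPM against 299, 430 and 451 CPM (−0.79 ± 0.17, adjusted p = 0.0103), a call lost without the block. Ndrg1, a hypoxia-induced relative of Ndrg2, was at 31.6, 32.5 and 51.5 CPM against 147, 181 and 183 CPM (−2.27 ± 0.16). Hif1a, the oxygen-sensing transcription factor, differed by −1.13 ± 0.15. Hk2, a hexokinase, did not pass (149, 153 and 182 CPM against 161, 162 and 147 CPM). Ndrg2 itself, the gene edited in the DCs of the hydrogel, had 0, 0 and 3 UMIs in the Lyve1/Cd209 cells.

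**Figure D4:**
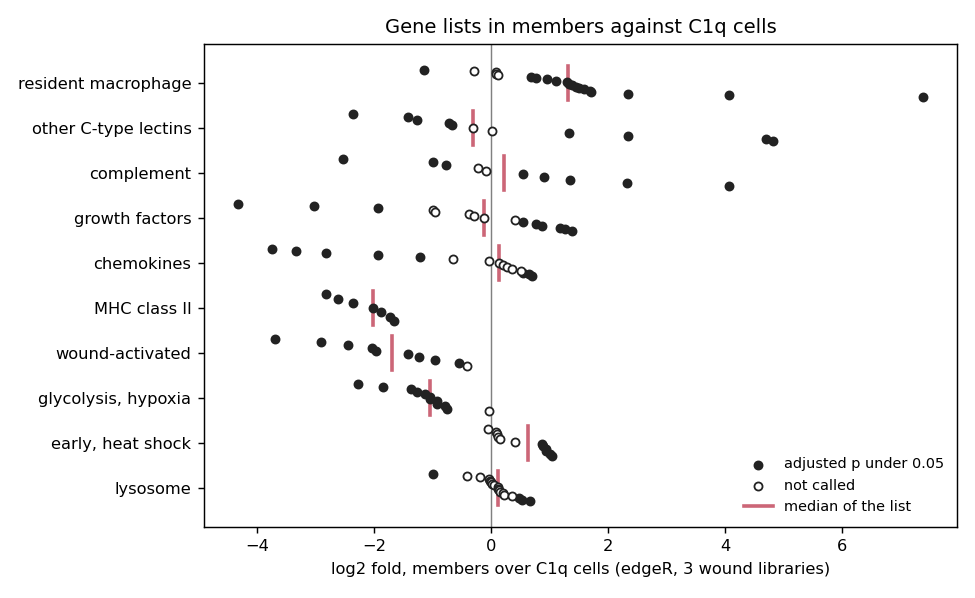
Log2 fold of each list gene in the Lyve1/Cd209 cells over the C1q cells, 1 row per list, with filled points for genes past the threshold, open points for the others and a red line at the list's median. The resident macrophage list had a median of 1.31 and the MHC class II list one of −2.02. The point furthest to the right is Timd4, whose fitted fold rests on 2 UMIs in the C1q cells of 1 library and is no bound.

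Secreted signals differed gene by gene. Hbegf, an EGF family growth factor, was at 830, 705 and 431 CPM against 275, 311 and 142 CPM (1.38 ± 0.16, adjusted p = 0.00042). Pdgfc and Bmp2 rose by 1.18 ± 0.14 and 1.26 ± 0.21, and Igf1, at 226, 266 and 262 CPM against 208, 146 and 142 CPM, by 0.55 ± 0.16 (adjusted p = 0.0385), a call lost without the Ndrg2-KO library or the block. Vegfa, the angiogenic factor, was at 21.8, 54.4 and 24.0 CPM against 309, 241 and 226 CPM (−3.02 ± 0.26, adjusted p = 0.00011), and Hgf differed by −1.94. Of the 15 growth factor genes 6 were higher and 3 lower. Kitl, the ligand of KIT, and Tslp, a cytokine best known from epithelia, were among the 10 largest rises of genes at 50 CPM or more, at 2.91 ± 0.27 and 2.58 ± 0.17.

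Of the 8 cytokine genes tested 4 were lower and none higher. Il1b was at 48.2, 353 and 41.2 CPM against 374, 1366 and 627 CPM (−2.92 ± 0.31), a call lost without the block, and Il10, an anti-inflammatory cytokine, at 157, 201 and 198 CPM against 331, 396 and 247 CPM (−0.87 ± 0.17, adjusted p = 0.00679), a call lost when C1q cells with any lectin UMI were left out. Among 15 chemokines 3 were higher and 5 lower. The monocyte attractant Ccl2 rose by 0.65 ± 0.19, a call that, like those of Ccl6 and Ccl12, was lost without the control library, the Ndrg2-KO library or the block, and Cxcl16, a scavenger-type chemokine, was at −1.94 ± 0.15. Of the 6 chemokine receptor genes 4 were lower, and Cx3cr1, the fractalkine receptor, had no UMI in the Lyve1/Cd209 cells against 5.16, 8.55 and 9.69 CPM.

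Of 18 transcription factors, Maf, a factor of resident macrophages, was higher at 935, 830 and 914 CPM against 597, 494 and 464 CPM (0.72 ± 0.15, adjusted p = 0.00914), Irf4 by 1.17 ± 0.15 and Tcf4 by 0.45 (lost without the control library, the blank hydrogel library or the block), and 4 were lower. Of the 12 immediate early and heat shock genes 6 were higher, with Jun at 1263, 1104 and 1195 CPM against 659, 642 and 420 CPM (1.0 ± 0.18). Of the 11 interferon-induced genes 4 were higher, among them Ifit3 by 1.59 and Ifit1 by 1.21, the latter lost without the block. Among genes at 50 CPM or more in either population, the largest rises outside the Cd209 cluster were Pla2g2d, a secreted phospholipase (56.8, 34.4 and 88.3 CPM against 3.87, 0.600 and 0.147 CPM), Cystm1 (3.72 ± 0.18), C6, Gfra2, a co-receptor for neurturin (3.49 ± 0.21), and Cd55, the decay-accelerating factor that limits complement on the cell surface (2.97 ± 0.14). The calcineurin-related gene Chp2 and the growth factor receptor gene Fgfr1 followed Kitl, at 2.81 ± 0.15 and 2.63 ± 0.14. Top2a, a proliferation gene, passed as higher (1.11, adjusted p = 0.033) but lost the call without the Ndrg2-KO library or the block and was at −1.65 without the mixed cells, and 1, 9 and 3 of the Lyve1/Cd209 cells held at least 3 cell cycle genes.

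Against the Arg1/Mmp12 cells, 2837 of 9140 genes passed (31.0%), 1508 higher (16.5%) and 1329 lower (14.5%) in the Lyve1/Cd209 cells. Of the 20 resident genes 18 were higher, with a median log2 fold of 3.85. C6 was at 1.71, 0.352 and 0 CPM in the Arg1/Mmp12 cells (8.39 ± 0.41), and Retnla, the alternative activation gene RELMα, was at 667, 278 and 672 CPM against 2.28, 0.352 and 2.46 CPM (8.33 ± 0.32, adjusted p = 2.59e-06). Ccl8 differed by 4.63 ± 0.31, Gas6 by 4.81 and Cd163 by 5.47 ± 0.31. Lower were Mmp13, a collagenase, at 0, 4.3 and 6 CPM against 231, 1380 and 173 CPM, Nos2, the inducible nitric oxide synthase, at 0, 4.91 and 0 CPM against 76.4, 468 and 126 CPM (−7.16 ± 0.39), and Inhba, an activin subunit, at 2.87, 20.9 and 2.57 CPM against 480, 1780 and 137 CPM (−6.74 ± 0.33). Each of these genes lay apart in all 3 libraries.

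MHC class II was lower than in the Arg1/Mmp12 cells too, in 6 of 6 genes, with H2-Ab1 at −1.96 ± 0.33, and so were 11 of 12 glycolysis and hypoxia genes (median −2.03). Il10 was higher than in these cells (157, 201 and 198 CPM against 22.2, 103 and 17.8 CPM, 2.20 ± 0.44, adjusted p = 0.00424), the opposite direction to that against the C1q cells. Igf1 was higher by 1.84 ± 0.25 and Vegfa lower (−3.80). Pf4 was lower (−1.19 ± 0.30, adjusted p = 0.013), a call lost without the blank hydrogel library or the block. Of the 12 early and heat shock genes 10 were higher and none lower.

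Against the Ly6c2/Ccr2 cells, 3108 of 8427 genes passed (36.9%), 1542 higher (18.3%) and 1566 lower (18.6%). All 20 resident genes were higher, with a median of 2.50, Pf4 among them at 1.26 ± 0.23 (adjusted p = 0.00192). Of the 18 lysosomal genes 10 were higher and none lower, with Ctsb and Ctsd, the cathepsins B and D, at 1.56 ± 0.28 and 1.74. H2-Ab1 was lower by −3.32 ± 0.32 on the log2 scale, and all 6 MHC class II genes tested were lower. Vcan, the monocyte proteoglycan versican, was at 0.574, 4.61 and 2.57 CPM against 379, 224 and 524 CPM (−6.91 ± 0.44). Markers of other cells were lower as well: all 6 T and NK cell genes tested, all 7 neutrophil genes (median −2.25) and all 4 erythroid genes (median −2.90). Against the C1q cells 4 of 5 erythroid genes were lower (median −1.87) and none of 7 neutrophil genes passed. The part of such cells in these results was not tested. In all 3 comparisons together 694 genes were higher and 621 lower in the Lyve1/Cd209 cells, of 8281 tested in each.

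Across treatments the Lyve1/Cd209 cells of 2 libraries at a time were compared by the ratio of their CPM, with an exact interval that holds counting error only. Between the wound with Ndrg2-KO DCs and that with control DCs, 414 of 7302 genes with at least 30 UMIs in either sum were at least 2-fold higher (5.67%) and 117 at least 2-fold lower (1.6%). Without the mixed cells, with sums of 1436048 UMIs (Ndrg2-KO DCs) and 1328028 UMIs (control DCs), the split was 308 to 172 of 5289 genes. For blank hydrogels over control DCs it was 123 (2.21%) to 124 (2.23%) of 5562 genes, and 29 to 70 of 4620 genes without the mixed cells. For Ndrg2-KO DCs over blank hydrogels it was 400 (5.48%) to 115 (1.57%) of 7302 genes. The 3 ratios share their libraries. The minimum was set in UMIs, and the sums were 3256620 UMIs with Ndrg2-KO DCs, 1742404 with control DCs and 1165902 with blank hydrogels. A gene high in the larger sum thus reached the minimum at a lower CPM, which favours ratios toward the Ndrg2-KO library. What this adds to each split was not tested. What treatment, mice and handling each contribute cannot be told apart.

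The lectins of the rule did not move together. From control to Ndrg2-KO DC wound, the log2 ratio was 1.25 for Cd209f (95% counting interval 1.17 to 1.33) and 1.36 for Cd209g (1.24 to 1.49), and these became 1.51 and 1.81 without the mixed cells. It was −0.71 for Cd209b, −0.62 for Cd209d (−0.72 to −0.52), −0.50 for Lyve1 and 0.20 for Fcna, and −1.94 for Cd209a (−2.21 to −1.67). Between blank hydrogels and control DCs, Cd209f and Cd209g were level (0.03 and 0.00; 0.20 and 0.32 without the mixed cells), while Cd209a (−1.21), Lyve1 (−0.96), Cd209d (−0.65) and Cd209b (−0.52) were lower in the wound with blank hydrogels. The Cd209f and Cd209g difference was thus between the Ndrg2-KO DC library and each of the others, with 1.22 and 1.36 over blank hydrogels. Since both genes chose the cells, these ratios are a description.

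**Figure D5:**
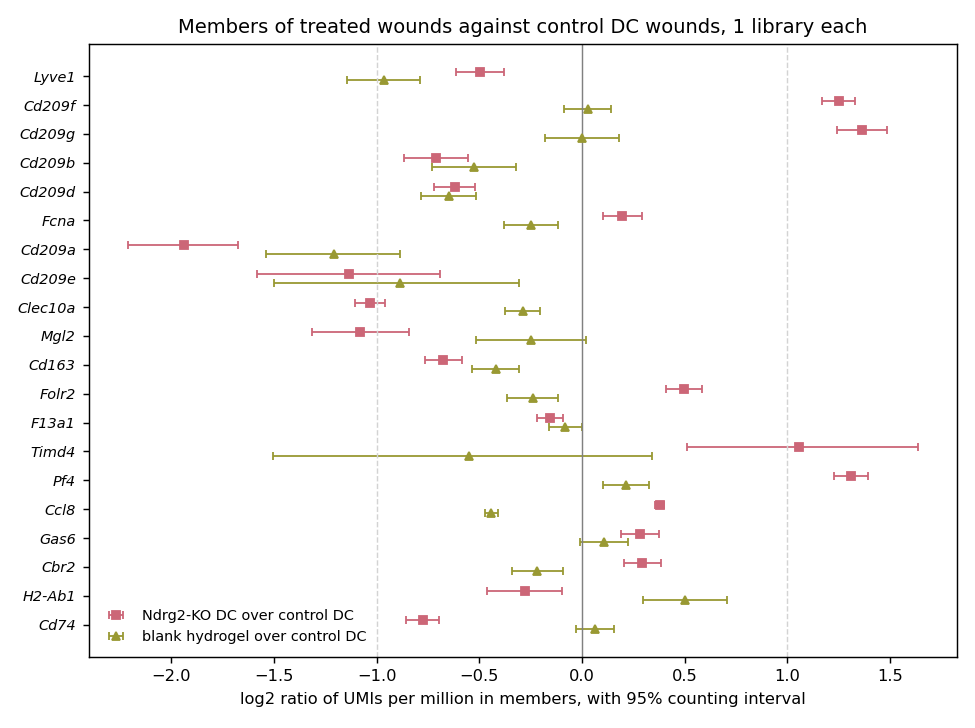
Log2 ratio of CPM in the Lyve1/Cd209 cells, Ndrg2-KO DC wound over control DC wound and blank hydrogel wound over control DC wound, with 95% intervals of counting error. Cd209f and Cd209g were up only in the former ratio (1.25 and 1.36 against 0.03 and 0.00), and Cd209a, Clec10a and Mgl2 were down in it (−1.94, −1.03 and −1.08).

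Outside the rule, 2 of the 20 resident genes were at least 2-fold higher in the wound with Ndrg2-KO DCs than with control DCs, Pf4 (1.31, interval 1.23 to 1.39) and Timd4 (1.06, 0.51 to 1.64), and 2 were at least 2-fold lower, Clec10a (−1.03) and Mgl2 (−1.08). Over all genes the shares were 5.67% higher and 1.6% lower. Without the mixed cells 4 of the 20 were at least 2-fold higher and 2 lower. Both Pf4 and Timd4 were also at least 2-fold higher than with blank hydrogels (1.10 and 1.61). In the C1q cells of the same libraries Pf4 was at 0.94 over control DCs and 0.01 over blank hydrogels, and Clec10a at −1.22. None of the 6 MHC class II, 12 complement, 18 lysosomal or 12 early and heat shock genes reached 2-fold. Cd74 was at −0.77 and H2-Aa at −0.85, while the median of the MHC class II list was −0.32, or −0.16 without the mixed cells. Without the mixed cells 1 of 12 complement genes was at least 2-fold higher. Cd163 was at −0.67 and at −0.89 in the C1q cells, so that a like ratio was measured in both populations.

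Of the 12 wound-activated genes with enough UMIs, 7 were at least 2-fold higher in the wound with Ndrg2-KO DCs than with control DCs and none lower, with a median of 1.69, but single cells held much of this signal. All 7 cell cycle genes with enough UMIs (median 3.08) and 4 of 6 monocyte genes (median 3.37) were at least 2-fold higher for the same pair. The share over all genes was 5.67%. Some genes of these lists reached the minimum only through the Ndrg2-KO library, such as Pclaf (35 UMIs against 1) and Chil3 (53 against 1). The counts therefore describe the genes that passed and are no result on the lists. At least 3 cell cycle genes were held by 9 of 151 cells against 1 of 101. Over blank hydrogels none of the 7 cell cycle genes and 4 of the 6 monocyte genes were at least 2-fold higher. Without the mixed cells 2 of 7 wound-activated genes with enough UMIs (median 0.73) and 2 of 3 monocyte genes, Fn1 and Ccr2, were at least 2-fold higher than with control DCs, and 1 cell cycle gene, Stmn1, had enough UMIs and stood at 0.55. For Gpnmb 91.0% of the 420 UMIs of that wound lay in 1 cell, for Mmp12 81.4% of 484 and for Spp1 68.9%, and without the mixed cells Gpnmb went from 5.81 to 2.39, Mmp12 from 5.69 to 2.06 and Spp1 from 4.17 to 0.73 (−0.02 to 1.51). Arg1 had 423 UMIs in 24 cells against 3 UMIs in 3 cells of the wound with control DCs. Fabp5, a fatty acid carrier, was at 1.66 (1.54 to 1.79) and at 1.70 without the mixed cells, against 0.45 in the C1q cells. Gapdh and Eno1, both enzymes of glycolysis, were at 1.10 and 1.38, and at 1.05 and 1.26 without the mixed cells.

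Many of the largest ratios by size rested on few cells. Lower than in the wound with control DCs were Rgs5, Apold1 and Flt1, vascular genes whose 43, 61 and 46 UMIs all lay in 1 cell of that wound. Higher with blank hydrogels were the hair follicle keratins Krt25 and Krt71, with 1005 and 906 UMIs in 2 cells, and the melanocyte enzyme gene Dct with 448. Over blank hydrogels the globin genes Hbb-bs (4183 UMIs) and Hba-a1 (853) stood out in the wound with Ndrg2-KO DCs, with 41.0% and 45.5% in 1 cell. Without the mixed cells Hbb-bs went from 5.34 to 0.83 and Hba-a1 from 4.93 to −0.87.

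Some ratios were spread over many cells, and the following genes were chosen after their values were seen. Fkbp5, a co-chaperone induced by glucocorticoids, stood at 26.7 CPM in the wound with Ndrg2-KO DCs and 133 CPM in that with control DCs, a log2 ratio of −2.31 (−2.68 to −1.95), and was detected in 58 of 151 against 79 of 101 cells. It was at −2.47 over blank hydrogels, at −2.33 and −2.36 in the C1q cells for the same pairs, and at −2.51 and −2.92 without the mixed cells. Mt2, a metallothionein, stood at 476 against 1356 CPM (−1.51) but at −0.25 in the C1q cells. Thbd, thrombomodulin, was at −2.95 and at −0.47 in the C1q cells, Vcam1, an adhesion molecule, at −2.54 and −1.62, and Dbp, a clock-controlled factor, at 1.88 and 0.36. Dbp was also higher with blank hydrogels than with control DCs (1.30, 39.5 against 16.1 CPM), so that the control library was the low one. Fkbp5 was thus low in both populations of that wound, while Mt2, Thbd and Dbp differed less in the C1q cells. The difference between the populations was not tested.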

How the data were processed

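The deposited values are raw UMI counts for each gene in each barcode, which the authors made with Cell Ranger (6.0.0 for the wound and 3.1.0 for the culture libraries per the file headers) without normalization. The submitters' notes name mm9 and the methods mm10, and 30934 of 31053 gene IDs (99.6%) were found in GENCODE M21 (GRCm38), from which positions were taken. Only barcodes called as cells were deposited, and the notes also name Seurat 3.1.1.

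Barcodes were kept if they held 300 genes or more, fewer than 100000 UMIs, and less than 10% of UMIs from mt- genes, 1948 of 2711, 5681 of 7538 and 3403 of 4027 in the wound libraries. No doublet caller was run and doublets were kept, since leaving out cells with at least 3 markers of another cell type was an alternative. Of the cells that met the lectin rule, 4 were left out by the collagen limit, all at 2.00% or more against at most 0.168% in the cells kept, and 4 for want of Csf1r and Mrc1. A cell that met the rules of 2 comparison populations went to the Arg1/Mmp12 cells, then the Ly6c2/Ccr2 cells, then the C1q cells.

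UMIs were summed per library and population. Populations were compared with edgeR 4.0.16 (limma 3.58.1, R 4.3.3): filterByExpr, TMM, library as block, quasi-likelihood test, Benjamini-Hochberg adjustment over all genes tested except those of the rules, threshold 0.05, checked on simulated data. The pairing comes from the design, as the populations of a library come from the same tissue and droplet run. The 3 libraries differ in treatment and stand in for replicates, so p-values measure the spread between these libraries only. Treatments, with 1 library each, were compared by CPM ratios with exact conditional binomial 95% intervals, at least 30 UMIs in 1 sum. Intervals and limits of a count of 0 (3 counts) cover counting error only. Cells were thinned to 1000 UMIs without replacement for shares. Python 3.11.15, NumPy 2.4.6, pandas 2.3.3, SciPy 1.17.1 and matplotlib 3.10.9 were used.

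The cells, the gene lists and the rule for named genes were chosen with earlier results of these data known. Eligible to be named were the genes of the rule, up to 4 genes per list with the highest level in the Lyve1/Cd209 cells and list genes past the threshold, the 10 largest rises and falls per comparison of populations among genes past the threshold, moved the same way in 3 libraries and at 50 CPM or more, the 5 largest ratios per direction and pair of treatments, and Ndrg2. The text names only some of these, picked with their values known, and the others enter the counts. Fkbp5, Mt2, Thbd, Vcam1 and Dbp were named outside this rule, after their values were seen. Alternatives were other cell filters, 2 or 4 lectins, no Csf1r, Mrc1 or collagen condition, no mixed cells, thinned cells, DESeq2 1.42.0, its size factors in edgeR or for the ratios, no filter, no block, each library left out, comparison cells without lectins, the mean over cells and a minimum of 100 UMIs. After seeing the data, a share over cells with Csf1r or Mrc1 and little collagen and a count of genes spread over at least 25% of the cells were added. Promoters came from RefSeq (GRCm38.p6), which held all 7 Cd209 genes.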

Additional observations from a re-analysis of the deposited data

How the results depend on the processing

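The share of Lyve1/Cd209 cells moved with the rule and the denominator. With 300 UMIs in place of 300 genes it was 3.89% (control DCs), 2.04% (Ndrg2-KO DCs) and 2.32% (all wounds), and over all deposited barcodes 3.8%, 2.02% and 2.27%. With at least 2 lectins it was 8.37%, 4.31%, 3.91% (blank hydrogels) and 4.90% (all), and with at least 4 it was 2.22% (Ndrg2-KO DCs) and 2.51% (all). Without mixed cells, which leaves out many cells of the denominator, it was 11.5%, 5.36%, 4.95% and 6.60%, thinned to 1000 UMIs 1.82%, 1.13%, 0.659% and 1.11%, and over cells with Csf1r or Mrc1 and little collagen, a denominator chosen after seeing the data, 12.4%, 6.89%, 4.29% and 6.95%. The control DC wound was highest in each of these.

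Genes past the threshold numbered 1156 against C1q cells and 1865 against Ly6c2/Ccr2 cells with DESeq2. Thinned to 1000 UMIs they numbered 442, 593 (Arg1/Mmp12) and 652, with fewer genes tested. With a library left out they ranged from 1463 to 2284, from 2178 to 2646 and from 2135 to 2915. Without the library block, which pairs the populations of a library, the counts were 1354, 2700 and 3017 against C1q, Arg1/Mmp12 and Ly6c2/Ccr2 cells. Without the block 40 of 154 named genes against C1q cells lost their call, among them Pf4, Spp1, Il1b, Ldha, Gapdh, Fabp5, Gpnmb, Fth1, Axl and Igf1. With DESeq2 15 of these lost it, Igf1, Ciita and Gpnmb among them, and with median-ratio size factors in edgeR the counts were 2099, 2838 and 3076.

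Genes at least 2-fold apart numbered 218, 56 and 178 with a minimum of 100 UMIs (Ndrg2-KO over control DCs, blank hydrogels over control DCs, Ndrg2-KO DCs over blank hydrogels), and 331, 96 and 273 where genes spread over at least 25% of the cells were counted, chosen after seeing the data. Without mixed cells 99 were left for blank hydrogels over control DCs. Directions that turned did so without the mixed cells: Areg (0.092) and Dcn (0.44) against Ly6c2/Ccr2 cells, Top2a (−1.65) against C1q cells, and Hba-a1 (−0.87) and Hbb-bt (−0.067) between Ndrg2-KO DCs and blank hydrogels. The cause of these changes was not tested. Depth limits genes under 30 UMIs, and 69 cells in 1 library limit the ratios with blank hydrogels.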
